A study of Mus musculus with 8 samples.

Results

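The endoplasmic reticulum (ER) translocon and signal peptidase genes are 9 of the 27998 genes in the feature table: Sec61a1, Sec61b and Sec61g, Ssr1 to Ssr4, and Spcs1 and Spcs2. They were chosen by name because Sec61g, a subunit of the Sec61 channel, had been seen to rise 3 h after IFNα in these libraries. The values of Sec61g are therefore given as a description at every time, without a test, and the question put to the data was whether its 8 partners rose with it. All 9 genes were found in the files and all 9 passed the filter on low counts in the whole compartment.

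Proteins that are to be secreted or built into a membrane enter the ER through the Sec61 channel, which consists of the pore subunit Sec61α (Sec61a1) and the small tail-anchored subunits Sec61β (Sec61b) and Sec61γ (Sec61g). The translocon-associated protein complex (TRAP), encoded by Ssr1, Ssr2, Ssr3 and Ssr4, sits beside the channel and helps some signal sequences to open it. The signal peptidase complex then removes the signal sequence, and Spcs1 and Spcs2 encode accessory subunits of it that carry no catalytic site. Bone marrow progenitors of neutrophils and monocytes make large amounts of granule proteins along this route, whereas hematopoietic stem cells (HSCs) are known for low protein synthesis.

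Bone marrow came from wildtype mice aged 12 to 14 weeks. Treated mice received recombinant IFNα (mouse) under the skin, 50000 IU for each 20 g of body weight, and were examined after 3 h, 24 h or 72 h, and the control mice received 100 µl of PBS, the diluent. Lineage-negative cKit+ (LK) cells were sorted and enriched with sorted HSCs (LK CD150+ CD48- CD34-), so the shares of cell types in a library are in part set by the sort. Each of the 4 groups was 1 droplet library with 4 mice told apart by hashtag antibodies, hence time point and library cannot be told apart, and p-values measure only the spread between mice that shared a library.

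After removal of multiplets, cells without a hashtag, cells with more than 5% mitochondrial unique molecular identifiers (UMIs) and cells with fewer than 700 genes, 2474 control cells, 1661 cells at 3 h, 3462 at 24 h and 2449 at 72 h remained. The median was 18964.5 UMIs per kept cell in the control library, 12017 at 3 h, 18953.5 at 24 h and 14763 at 72 h, hence lowest at 3 h. Barcodes without a hashtag were 166 of 3190 in the control library, 422 of 2454 at 3 h, 190 of 4346 at 24 h and 181 of 3320 at 72 h. UMIs summed per mouse ranged from 1102706 to 26446327, and the lowest total belonged to control mouse 4 with 58 cells. The libraries shared 98 barcode sequences among 13310 barcodes, of which 3 belonged to kept cells. Isg15, an interferon-stimulated gene, averaged 32.6 UMIs per 1000000 (CPM) in control mice, 1693 at 3 h, 95.2 at 24 h and 19.1 at 72 h.

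Sec61g (ENSMUSG00000078974) lies at chr11:16500530-16508484 on the minus strand, Sec61b (ENSMUSG00000053317) at chr4:47474658-47483242 on the plus strand and Ssr1 (ENSMUSG00000021427) at chr13:37966605-37994217 on the minus strand of GRCm38 (GENCODE vM21). Their RefSeq promoter windows (GRCm38.p6, 250 bases before to 50 bases after the start site, read along the gene) are shown because these genes had the clearest gains in the HSC-like cells described further on. The capitals mark CCACG, a short motif that is part of the ER stress response element. The windows lie at chr11:16508435-16508734 (minus strand), chr4:47474411-47474710 (plus strand) and chr13:37994159-37994458 (minus strand).
Sec61g: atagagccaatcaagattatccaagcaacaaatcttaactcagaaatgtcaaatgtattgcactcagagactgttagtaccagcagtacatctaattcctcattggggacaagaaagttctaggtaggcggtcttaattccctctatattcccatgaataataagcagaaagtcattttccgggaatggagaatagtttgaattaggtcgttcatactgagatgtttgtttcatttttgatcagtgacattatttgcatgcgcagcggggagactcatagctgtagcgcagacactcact
Sec61b: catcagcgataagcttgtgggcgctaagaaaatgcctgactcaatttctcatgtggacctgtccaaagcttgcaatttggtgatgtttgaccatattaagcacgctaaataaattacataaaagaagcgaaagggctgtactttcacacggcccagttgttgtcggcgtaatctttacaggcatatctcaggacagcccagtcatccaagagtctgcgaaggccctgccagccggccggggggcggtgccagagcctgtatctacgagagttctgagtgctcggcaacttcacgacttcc
Ssr1: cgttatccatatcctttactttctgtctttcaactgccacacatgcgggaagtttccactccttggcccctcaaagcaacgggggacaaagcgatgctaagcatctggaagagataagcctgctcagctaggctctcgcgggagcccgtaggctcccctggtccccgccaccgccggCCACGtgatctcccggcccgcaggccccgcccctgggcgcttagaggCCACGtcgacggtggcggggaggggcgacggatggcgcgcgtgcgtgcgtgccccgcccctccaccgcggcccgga
CCACG was present on either strand in the windows of 4 of the 7 members with a window (Ssr1, Ssr3, Spcs1 and Spcs2) and in 32.8% of all 32851 windows. The core of the interferon-stimulated response element, GAAANNGAA on either strand, occurred in 8.56% of all windows and in none of the 7. The unfolded protein response element TGACGTGG occurred in 0.676% of all windows, and the whole ER stress response element (CCAAT and CCACG, which overlaps the CCACG search) in 0.119%, again in none of the 7. These matches describe letters in the windows and are not binding sites. No window was listed for Sec61a1 and Ssr2.

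In the whole compartment Sec61g stood apart from its partners at 3 h. Its levels were 509.7, 517.4, 484.0 and 488.1 CPM in control mice 1 to 4 and 1047, 1020, 1081 and 1061 CPM at 3 h. The lowest treated mouse was thus far above the highest control mouse. The log2 fold change (log2FC) was +1.07 ± 0.04 (SE, n = 4 mice per group), and 6.9% of the 12042 genes tested passed the test with an absolute log2FC over 1. None of the 8 partners changed by that much at any time.

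Among the partners at 3 h, 1 rose and 4 fell in sums over all cells of a mouse, where 19.7% of all genes were higher and 19.2% lower (edgeR quasi-likelihood test, Benjamini-Hochberg adjusted p under 0.05). The median log2FC of the partners was -0.15, against -0.03 over all genes. In such sums fewer cells of a type and less RNA per cell cannot be told apart.

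Sec61b, the other small channel subunit, measured 1054, 1049, 992.8 and 952.7 CPM in control mice and 1129, 1041, 1127 and 1163 CPM at 3 h. 3 of the 4 treated mice lay above every control mouse and 1 lay within the control range. The log2FC of +0.13 ± 0.04 (adjusted p = 0.0099) was 0.11 with adjusted p = 0.0511 without mouse 4 of the 3 h group. It was -0.02 with scaling by library size alone, which lowered the median of all genes by 0.15 at 3 h. Sec61a1, the pore itself, was at 45.1 to 48.7 CPM in control mice and 34.4 to 46.0 CPM at 3 h. Its log2FC was -0.17 ± 0.08 (adjusted p = 0.0898), and 1 of the 4 treated mice lay within the control range.

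The TRAP genes and Spcs2 accounted for all 4 falls. Ssr2 (TRAPβ) was at 374.6, 379.3, 359.6 and 365.4 CPM in control mice and at 299.2, 268.2, 291.1 and 308.3 CPM at 3 h. Every treated mouse lay below every control mouse (log2FC -0.34 ± 0.05, adjusted p = 2.29e-05). Ssr4 (TRAPδ) was at 752.4, 747.1, 743.5 and 694.3 CPM in control mice and at 660.8, 600.6, 615.1 and 683.2 CPM at 3 h. The groups again did not overlap (log2FC -0.21 ± 0.04, adjusted p = 4.25e-04). Ssr1 (TRAPα) had a log2FC of -0.14 ± 0.05 (adjusted p = 0.0398), which missed the threshold without control mouse 1 or 2 or without mouse 2 or 3 of the 3 h group (adjusted p from 0.0722 to 0.133). Ssr3 (TRAPγ) had one of -0.12 ± 0.05 (adjusted p = 0.0583) and did not pass.

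The signal peptidase subunits differed from each other. Spcs2 was at 497.0 to 534.7 CPM in control mice and at 438.2 to 482.5 CPM at 3 h (log2FC -0.16 ± 0.04, adjusted p = 0.00284), without overlap. Spcs1 was at 288.6 to 300.4 CPM in control mice and at 285.2 to 303.0 CPM at 3 h (log2FC -0.01 ± 0.03, adjusted p = 0.812).

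**Figure D1:**
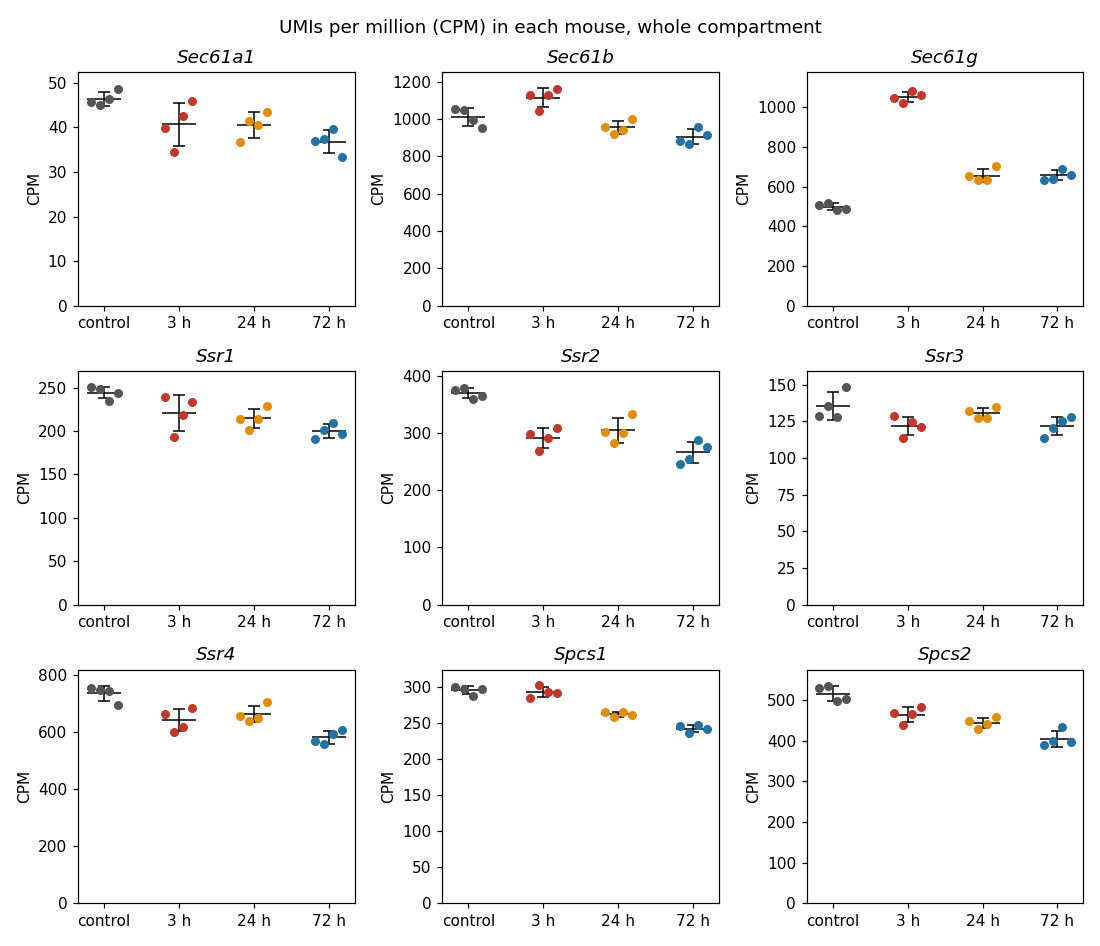
Normalized UMI counts (CPM, linear axes from 0) of each gene in each mouse of the control, 3 h, 24 h and 72 h groups, summed over all kept cells; points are mice, horizontal lines the mean and error bars 1 SD (n = 4). Sec61g rose from a mean of 499.8 CPM in control mice to 1053 CPM at 3 h and lay near 656 CPM at 24 h and 72 h, whereas Ssr2, Ssr4 and Spcs2 lay below the control mice at 3 h.

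At 24 h and 72 h Sec61g was less far above the control mice than at 3 h, and more of its partners were below them. Sec61g was at 631.9 to 702.3 CPM at 24 h and 635.5 to 690.7 CPM at 72 h, above every control mouse at both times. The log2FC was +0.39 ± 0.04 at 24 h and +0.39 at 72 h. At 24 h 0 partners rose and 5 fell, where 14.5% of all genes were higher and 13.8% lower. At 72 h 0 rose and all 8 fell, where 18.9% of all genes were higher and 18.5% lower. The share of genes past the test with an absolute log2FC over 1 was 2.22% at 24 h and 2.86% at 72 h. All 3 contrasts share the control mice.

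Ssr2 had the largest fall among the partners at 72 h, to 246.4, 254.6, 287.7 and 276.2 CPM (log2FC -0.48, adjusted p = 4.70e-07). Ssr4 and Spcs2 had a log2FC of -0.35 each at 72 h (adjusted p = 1.16e-06 and 3.55e-07), and Spcs1, which did not pass at 3 h, one of -0.29 (adjusted p = 3.15e-07). Spcs1 was also lower at 24 h, with 258.7 to 265.4 CPM (log2FC -0.17, adjusted p = 2.13e-04). Sec61a1 and Sec61b, which did not pass at 24 h, had log2FC of -0.32 and -0.17 at 72 h (adjusted p = 0.00114 and 0.00222). Ssr3 was nearest to the threshold, with a log2FC of -0.12 at 72 h (adjusted p = 0.0475), and it missed it without 2 control cells rich in Jchain that are described further on (adjusted p = 0.0506). It also missed it without control mouse 2 or 4, mouse 1, 2 or 3 of the 24 h group or mouse 1 or 2 of the 72 h group (adjusted p from 0.0507 to 0.177).

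Between 3 h and 24 h Sec61g came down by 0.68 on the log2 scale, given as a description. 2 of the 8 partners fell between these times, where 16.3% of all genes were lower. These were Sec61b (log2FC -0.22, adjusted p = 1.30e-04) and Spcs1 (log2FC -0.16, adjusted p = 3.20e-04).

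The mix of cells in the libraries moved with these sums. Control cells were clustered, clusters were named from marker genes, and treated cells took the class of their nearest control cells; none of the 9 genes was among the genes used for clustering. Myeloid progenitor-like cells made up 29.1% of control cells and 15.6% at 3 h (25.9% to 30.1% and 12.8% to 18.8% over mice), and HSC-like cells 17.1% and 32.0%. At 24 h and 72 h myeloid progenitor-like cells made up 19.7% and 15.3%, and HSC-like cells 24.0% and 29.4%. The summed level of 15 myeloid progenitor markers ranged from 13975 to 19084 CPM over control mice and from 7414 to 10935 CPM at 3 h. That of 8 HSC markers ranged from 241.3 to 331.0 CPM and from 457.9 to 577.0 CPM. The HSC list holds Ly6a (Sca-1), which the authors report to rise after IFNα. Its sum is therefore not a measure of HSC numbers alone. The sum of 6 monocyte markers went from 198.6 to 297.7 CPM in control mice to 126.2 to 150.8 CPM at 3 h. That of 5 dendritic cell markers went from 935.9 to 1018 CPM to 1552 to 1675 CPM at 3 h. The dendritic sum was 960.4 to 1071 CPM at 24 h and 702.7 to 778.5 CPM at 72 h. Marker sums cannot tell a change in cell numbers from a change in the expression of the markers. The part of these shifts in the results for the whole compartment was not tested beyond the weighting by class shares below.

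HSC-like cells came from clusters 4 and 10, with Hlf, Ly6a and Myl10 among the leading genes of both. Jchain and Mzb1, genes of antibody-secreting cells, also led cluster 10, but 2 cells held 4803 of the 4806 Jchain UMIs and 156 of the 158 Mzb1 UMIs of its control cells. Cd74, a gene of antigen-presenting cells, was another leading gene of cluster 10, and Dntt, a lymphoid gene, was among the leading genes of cluster 4. Myeloid progenitor-like cells came from clusters 2, 5 and 6, led by granule and monocyte genes such as Mpo, Elane and Csf1r, and its makeup differed between groups. Cluster 6, led by S100a8 and S100a9, held 26.4% of the class in the control library, 6.95% at 3 h, 8.80% at 24 h and 9.87% at 72 h, and cluster 5 held 28.3% and then 42.7% to 46.3%. The other classes compared were lymphoid-primed multipotent progenitor (LMPP)-like, erythroid progenitor-like and megakaryocyte (MK) progenitor-like cells. Control mouse 4 had fewer than 10 cells of each of these last 3 classes, which left 3 control mice there, and it had 12 HSC-like and 15 myeloid progenitor-like cells.

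In control mice all 9 genes had their highest mean in the myeloid progenitor-like class. Ssr2 averaged 534.8 CPM there and 142.4 CPM in the HSC-like class, and Ssr1 averaged 348.8 and 119.1 CPM. Sec61b averaged 1473 CPM in the myeloid progenitor-like class and 547.8 CPM in the erythroid progenitor-like class, where it was lowest. Spcs1 was the most even of the 9, with 321.1 CPM in the myeloid progenitor-like and 256.2 CPM in the HSC-like class. Ssr2 had one of the widest gaps between these classes. Whether such gaps had a part in the changes of the whole compartment was not tested beyond the weighting by class shares below. These levels are a description without a test.

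**Figure D2:**
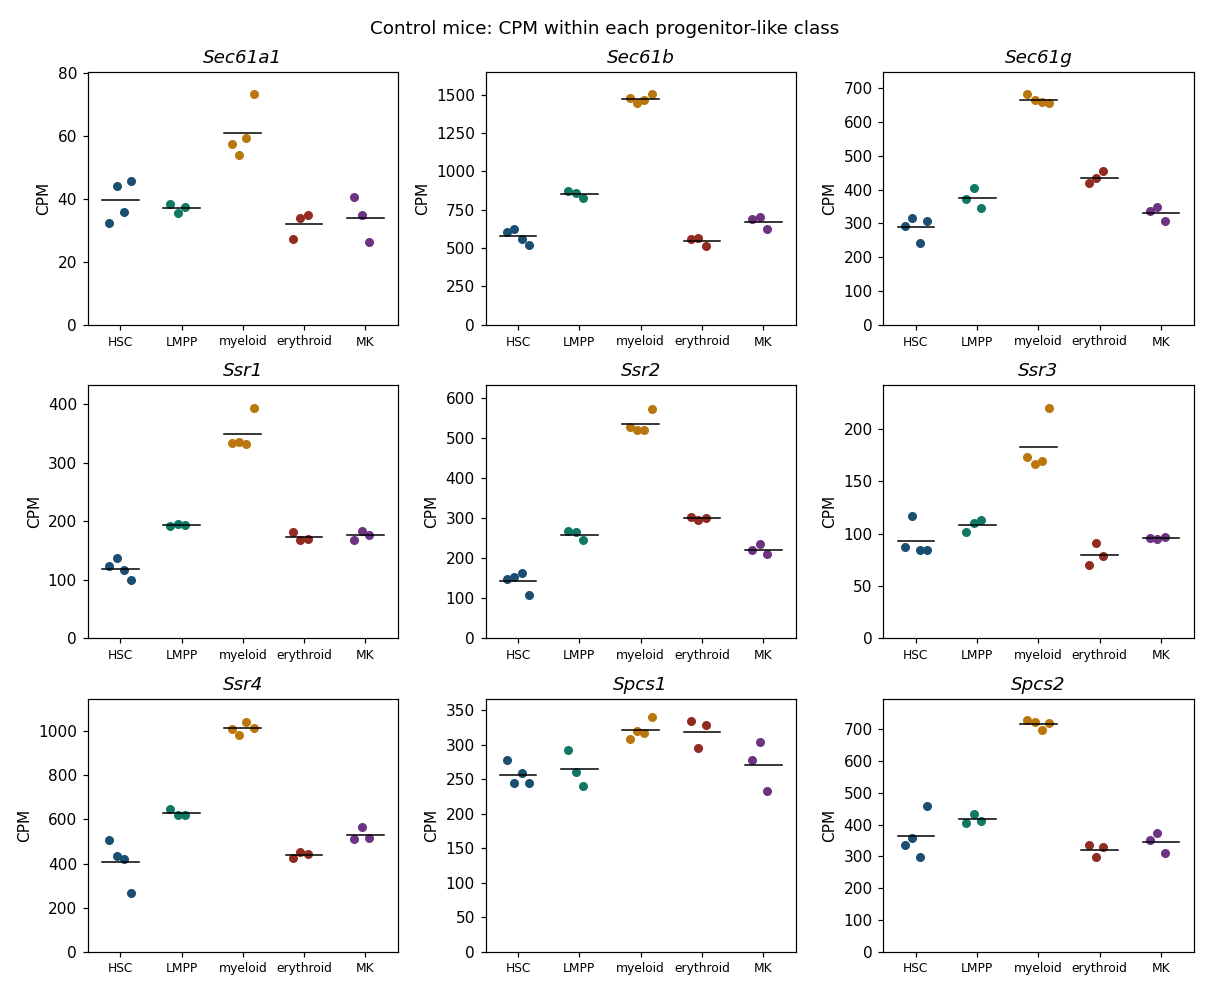
Normalized UMI counts (CPM, linear axes from 0) of each gene in control mice for the HSC-like, LMPP-like, myeloid, erythroid and megakaryocyte (MK) progenitor-like classes. Points are mice and lines the mean. The myeloid class has the highest mean for all 9 genes, with 534.8 CPM for Ssr2 against 142.4 CPM in the HSC-like class.

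With the shares of the classes held equal over mice, the falls at 3 h were no longer called. The weights were the classes' shares of UMIs, not of cells, in the control library, with all remaining cells as 1 group. Under this weighting 2 partners rose at 3 h and 0 fell (limma on log2 of weighted CPM + 1). The share of all genes called in this fit was not counted, and the shares given above come from another test. The median log2FC of all genes under the weighting was -0.02 at 3 h. Sec61b had a log2FC of +0.35 and Spcs1 one of +0.09 (adjusted p = 0.039), while Ssr2 was at -0.09 (adjusted p = 0.103) and Ssr4 at +0.00083. Sec61g had +1.28 at 3 h on the same scale. At 72 h Ssr2 (-0.21, adjusted p = 0.00164), Ssr4 (-0.11, adjusted p = 0.0106), Spcs1 (-0.19, adjusted p = 4.34e-04) and Spcs2 (-0.14, adjusted p = 0.00157) still fell, whereas Sec61b rose (+0.11, adjusted p = 0.00552). The weighting did not hold the clusters within a class or within the remaining cells equal. Cluster 6 was 26.4% of the myeloid class in the control library and 9.87% at 72 h. The weighting also used classes of control mouse 4 with fewer than 10 cells.

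Within the classes Sec61b was the partner that rose at 3 h in all 5. In HSC-like cells it was at 604.5, 626.9, 558.0 and 519.7 CPM in control mice and at 798.5, 804.1, 906.3 and 783.7 CPM at 3 h (log2FC +0.49 ± 0.06, adjusted p = 3.60e-08). In myeloid progenitor-like cells it was at 1479, 1443, 1466 and 1505 CPM in control mice and at 1714, 1867, 1778 and 1774 CPM at 3 h (log2FC +0.28 ± 0.03, adjusted p = 4.88e-08). Every treated mouse lay above every control mouse in each class. The log2FC was +0.38 ± 0.05 in LMPP-like cells (adjusted p = 6.71e-07), +0.38 ± 0.06 in erythroid progenitor-like cells (adjusted p = 2.18e-05) and +0.33 ± 0.06 in MK progenitor-like cells (adjusted p = 1.00e-04).

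For Sec61g the values in HSC-like cells were 292.5, 315.9, 241.0 and 305.7 CPM in control mice and 638.3, 809.4, 894.4 and 711.8 CPM at 3 h. Its log2FC, given as a description, was +1.44 in HSC-like, +1.22 in LMPP-like, +1.17 in myeloid, +1.59 in erythroid and +1.23 in MK progenitor-like cells. In every class the log2FC of Sec61g was thus larger than that of Sec61b.

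In HSC-like cells 3 of 8 partners rose at 3 h and 0 fell, where 12.9% of 9859 genes were higher and 6.67% lower. The partners' median log2FC was +0.25, against -0.03 over all genes. Ssr1 was at 123.3, 136.5, 117.2 and 99.4 CPM in control mice and at 158.9, 146.0, 177.3 and 169.0 CPM at 3 h. All 4 treated mice were above all controls (log2FC +0.41 ± 0.09, adjusted p = 6.05e-04), and it did not pass with scaling by library size alone (+0.19). That scaling lowered the median of all genes by 0.22 in HSC-like cells, and under it 1 partner rose (Sec61b, +0.27, adjusted p = 3.39e-04) and 1 fell (Spcs1, -0.23, adjusted p = 0.0133), while Spcs2 was at +0.04. The share of all genes called was not counted under library size alone, and the shares given above come from the other scaling.

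Spcs2 was at 337.3, 357.4, 299.1 and 458.6 CPM in HSC-like cells of control mice and at 378.1, 408.8, 431.4 and 400.2 CPM at 3 h. The groups overlapped because control mouse 4, with 12 cells, was the highest of all 8 mice. The log2FC was +0.26 ± 0.07 (adjusted p = 0.00919) with all mice and +0.30 (adjusted p = 0.00174) without control mouse 4. It did not pass without control mouse 3 (+0.18, adjusted p = 0.133) or without mouse 3 of the 3 h group (+0.22, adjusted p = 0.0668). Spcs2 is hence the least firm of the 3 calls.

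Ssr2 was at 146.8, 153.0, 162.8 and 107.0 CPM in HSC-like cells of control mice and at 171.8, 183.6, 188.7 and 161.8 CPM at 3 h (log2FC +0.23, adjusted p = 0.0639). Ssr3 had a log2FC of +0.28 ± 0.11 (adjusted p = 0.0586). Neither passed the test. Sec61a1, Ssr4 and Spcs1 had values of +0.12, +0.03 and -0.01, with adjusted p from 0.684 to 0.974.

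In LMPP-like cells Sec61b alone rose among the partners and 0 fell (10.5% of 9366 genes higher, 6.29% lower), and the same count was found in erythroid progenitor-like cells (9.52% of 8630 genes higher, 4.07% lower) and in MK progenitor-like cells (8.09% of 8849 genes higher, 2.2% lower). In myeloid progenitor-like cells 1 partner rose and 1 fell (13.8% of 9709 genes higher, 10.9% lower). The fall was that of Ssr2, from 526.4, 521.0, 519.6 and 572.3 CPM in control mice to 456.4, 471.9, 505.8 and 474.3 CPM at 3 h (log2FC -0.14 ± 0.05, adjusted p = 0.0335). It missed the threshold (adjusted p from 0.0535 to 0.122) in fits without control mouse 1, 2 or 4, without mouse 1, 2 or 4 of the 3 h group, or without mouse 2, 3 or 4 of the 72 h group. Within cluster 5 alone and cluster 2 alone Ssr2 was not called at 3 h, with +0.04 in cluster 5 (adjusted p = 0.790) and -0.06 in cluster 2 (adjusted p = 0.524). Sec61b rose in both (+0.41 and +0.32), and Spcs1 rose in cluster 2 (+0.24, adjusted p = 0.00667). Cluster 6 was not fitted alone. Control mouse 4, with 15 cells of the class, cannot have had the 10 cells needed in both clusters 2 and 5. These fits held fewer cells than the class, so a missing call in them is weaker than one in the class. The share of all genes called in them was not counted.

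**Figure D3:**
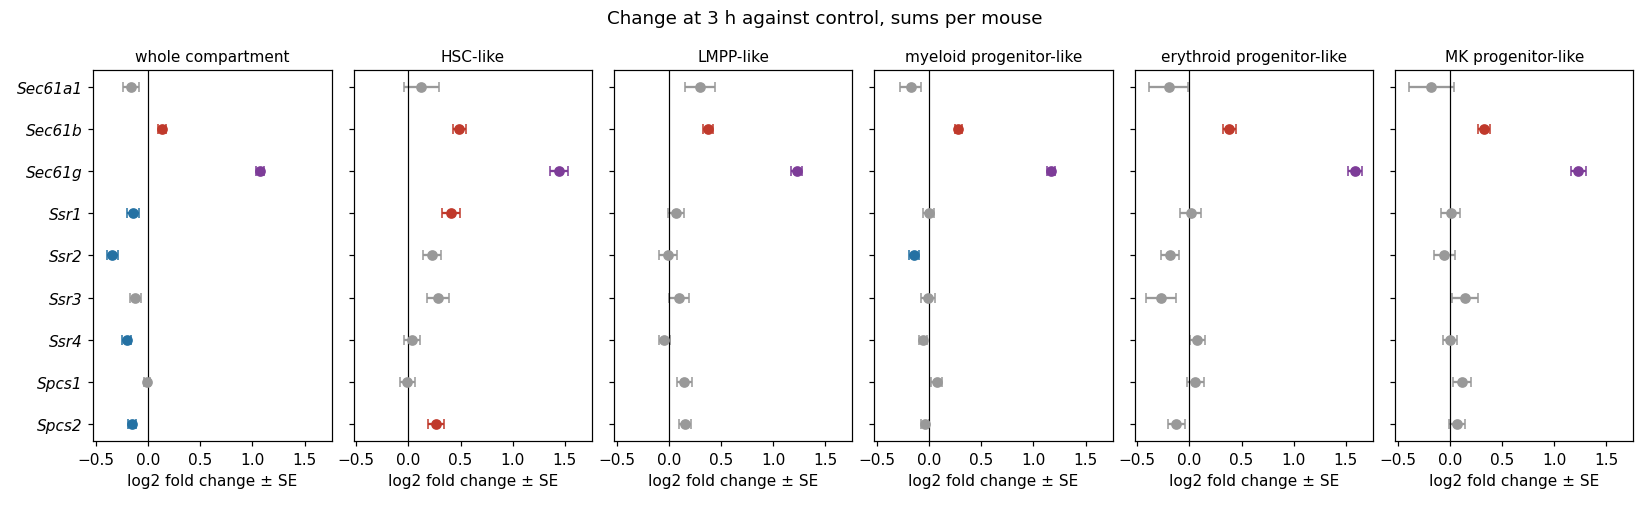
Log2 fold change at 3 h against control for each gene in the whole compartment and in the 5 classes (linear axis in log2 units); points are the fitted values and error bars 1 SE, red for partners that passed as higher, blue for those that passed as lower, grey for those that did not pass and purple for Sec61g, which is shown as a description. Sec61b is higher in every class, Ssr1 and Spcs2 in HSC-like cells, and Ssr2 is lower in the whole compartment (-0.34) but not in HSC-like cells (+0.23).

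The 3 h change itself was then compared between HSC-like cells and each other class in a model with the mouse as a block. Against myeloid progenitor-like cells 4 of 8 partners had a larger change in HSC-like cells, where 3.47% of all genes did. The difference of log2FC was +0.42 ± 0.09 for Ssr1 (adjusted p = 0.00193), +0.37 ± 0.09 for Ssr2 (adjusted p = 0.00665), +0.34 ± 0.07 for Spcs2 (adjusted p = 0.00128) and +0.23 ± 0.06 for Sec61b (adjusted p = 0.00902). The clusters within the myeloid class differed between groups, as given above, and the difference from single clusters was not tested. Against erythroid progenitor-like cells only Spcs2 passed (+0.43 ± 0.11, adjusted p = 0.0307), where 0.824% of all genes did. Against LMPP-like and MK progenitor-like cells 0 partners passed, where 0.584% and 0.0794% of all genes did. The differences of Ssr1 were +0.33 ± 0.11 (adjusted p = 0.189) and +0.35 ± 0.12 (adjusted p = 0.478) there, so a difference as large as that against the myeloid class lies within their error.

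HSC-like cells had a median of 11195 UMIs in the control library and 8851 at 3 h, and 2 control cells of cluster 10, in mice 1 and 2, held 2838 and 1965 UMIs of Jchain, which encodes the joining chain of antibodies. Their Ssr4 counts were 99 and 27 UMIs. Without these 2 cells Sec61b, Ssr1 and Spcs2 still rose in HSC-like cells at 3 h, and Ssr3 passed as well (+0.30, adjusted p = 0.0383).

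At the later times few partners changed within a class. In HSC-like cells 0 passed at 24 h (5.31% of all genes passed in either direction) and 1 at 72 h (5.12%). The latter was Spcs1, at 227.3, 223.0, 224.3 and 206.2 CPM against 277.3, 244.5, 258.4 and 244.6 CPM in control mice (log2FC -0.24, adjusted p = 0.0362). It was not called (-0.18) without the 2 cells rich in Jchain, nor with control mouse 1 or 3 or with mouse 2, 3 or 4 of the 72 h group left out. In LMPP-like cells 0 partners passed at 24 h (7.5%) and 0 at 72 h (5.82%), and in MK progenitor-like cells 0 passed at 24 h (3.54%) and 0 at 72 h (3.89%). In erythroid progenitor-like cells Sec61b rose at 24 h (log2FC +0.22, adjusted p = 0.0120, where 9.65% of all genes passed) and 0 partners passed at 72 h (5.23%).

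More partners passed at the later times in the myeloid progenitor-like class, whose share of cluster 6 was lower than in the control library. At 24 h Ssr2 (log2FC -0.13, adjusted p = 0.0482) and Spcs2 (-0.11, adjusted p = 0.0362) fell, where 16.2% of all genes passed, and leaving out single mice gave counts from 0 to 3. Of the 16 mice, 11 ended the call of Ssr2 when left out and 9 that of Spcs2, and mouse 2 of the 24 h group gave the highest adjusted p for both (0.218 and 0.146). At 72 h 4 partners fell and 1 rose, where 15.7% of all genes passed. Ssr2 was at 424.9, 426.2, 466.4 and 467.4 CPM, below every control mouse (log2FC -0.24, adjusted p = 3.72e-04). Ssr4 had -0.14 (adjusted p = 0.00662), Spcs1 -0.20 (adjusted p = 0.00690) and Spcs2 -0.17 (adjusted p = 0.00153), while Sec61b had +0.10 (adjusted p = 0.0391). The count at 72 h was 3 without mouse 2 of that group, which ended the calls of Spcs1 (adjusted p = 0.0754) and Ssr4 (adjusted p = 0.0732). Ssr4 was also not called without mouse 3 of that group (adjusted p = 0.0653), nor Sec61b without control mouse 1, 2 or 3 or without mouse 4 of that group (adjusted p from 0.0609 to 0.124). Within cluster 2 alone and cluster 5 alone, which hold fewer cells than the class, no partner was called lower at either time. Cluster 6 was again not fitted alone, and the share of all genes called in the single clusters was not counted. Ssr2 had -0.03 in cluster 2 and +0.04 in cluster 5 at 24 h and -0.14 in both at 72 h (adjusted p = 0.0599 and 0.281). Sec61b rose at 72 h in cluster 2 (+0.20, adjusted p = 1.63e-05) and cluster 5 (+0.19, adjusted p = 0.0132), and at 24 h in cluster 2 (+0.11, adjusted p = 0.0123). Ssr3 rose at 24 h in both (+0.19, adjusted p = 0.0320, and +0.30, adjusted p = 0.0134) and at 72 h in cluster 5 (+0.28, adjusted p = 0.0482).

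Sec61g was higher in all 5 classes at both later times, with every treated mouse above every control mouse, which is again a description. In HSC-like cells it was at 407.0, 433.5, 446.6 and 486.9 CPM at 24 h and at 439.4, 419.8, 489.2 and 461.8 CPM at 72 h. The log2FC there was +0.65 at 24 h and +0.68 at 72 h. Over the other classes it ranged from +0.52 to +0.57 at 24 h and from +0.61 to +0.69 at 72 h.

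The ratio of Sec61g to Sec61b UMIs within a mouse needs no scaling between libraries. It was 0.494 ± 0.013 in control mice (SD, n = 4) of the whole compartment. After 3 h it was 0.945 ± 0.030, after 24 h 0.686 and after 72 h 0.725. The 4 control mice ranged from 0.483 to 0.512 and the 4 mice at 3 h from 0.913 to 0.980. In HSC-like cells the mean went from 0.502 to 0.925 at 3 h and was 0.740 and 0.727 later. In erythroid progenitor-like cells it went from 0.797 to 1.84 and was 0.995 and 1.18 later. As Sec61g chose the set, these ratios carry no test.

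**Figure D4:**
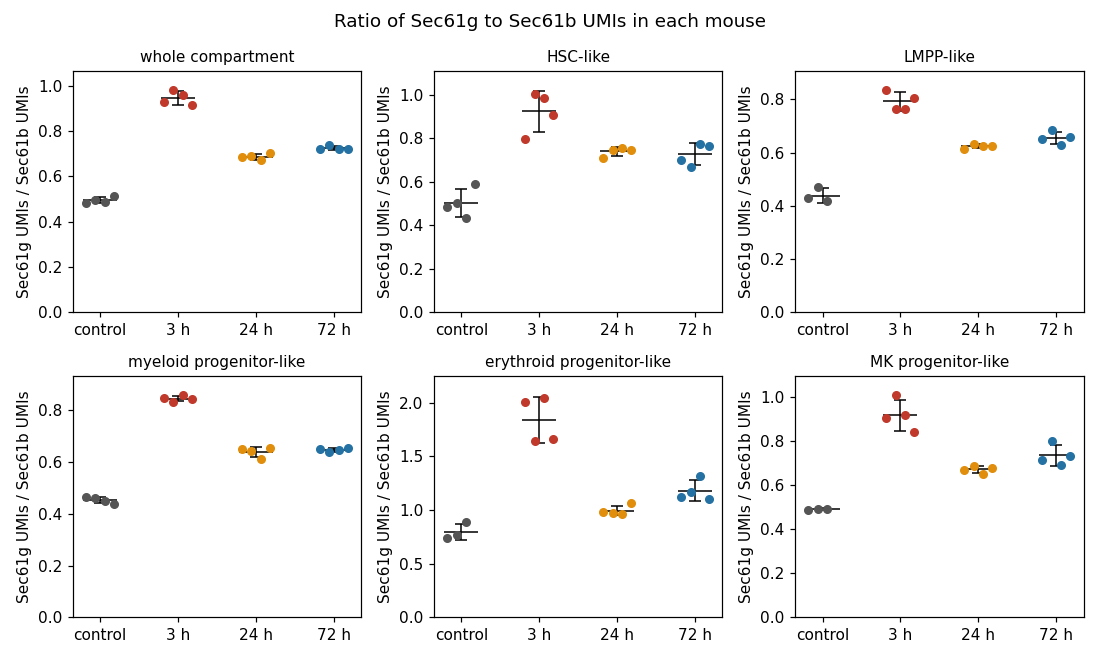
Ratio of Sec61g UMIs to Sec61b UMIs (linear axes from 0) in each mouse for the whole compartment and the 5 classes at control, 3 h, 24 h and 72 h; points are mice, lines the mean and error bars 1 SD (n = 4, or 3 control mice in the LMPP, erythroid and MK classes). In every panel the 3 h mice lie above the control mice, with means of 0.494 and 0.945 in the whole compartment.

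The genes whose levels over the 16 mice were most like those of Sec61g came from outside the translocon. By Pearson's r of log2 CPM, as a description over mice that share libraries, these were Ndufa1 (0.991), Atox1 (0.990), Cox6c (0.990), Rps28 (0.989) and Ubl5 (0.987). Ndufa1 and Cox6c encode subunits of the respiratory chain, Atox1 a copper chaperone, Rps28 a protein of the small ribosomal subunit and Ubl5 a ubiquitin-like protein. Among the partners the value was 0.58 for Sec61b and 0.14 for Spcs1, and it was below 0 for the other 6, down to -0.51 for Ssr3.

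These 5 genes have short transcripts, with median annotated lengths from 387 bases for Rps28 to 606 bases for Cox6c. Sec61g has a median of 754 bases over its transcripts and Sec61b one of 564, and the other partners range from 782.5 bases (Ssr4) to 3172 bases (Sec61a1). The annotated transcripts of Sec61g run from 450 to 1862 bases, so its length class depends on which of them is used. Over all genes the median log2FC at 3 h was +0.45 for the 314 genes with transcripts of up to 600 bases and -0.01 for the 960 genes of 600 to 1000 bases. The upper quartile at 3 h was +1.02 for genes of up to 600 bases and +0.27 for those of 600 to 1000 bases. The median was +0.20 and +0.26 for the shortest class at 24 h and 72 h. Length therefore moved with the change over all genes, chiefly below 600 bases. Of the 1274 tested genes of up to 1000 bases, 137 had a larger log2FC at 3 h than Sec61g.

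With the trend on length removed in each mouse, the value of Sec61g at 3 h was +0.89 in the whole compartment and +1.26 in HSC-like, +1.08 in LMPP-like, +1.02 in myeloid, +1.45 in erythroid and +1.08 in MK progenitor-like cells. Sec61b then had -0.24 in the whole compartment, and in no class did it pass (+0.15 with adjusted p = 0.0736 in HSC-like cells, -0.02 to +0.05 in the others). Ssr1 in HSC-like cells remained past the test (+0.34), and Spcs2 did not (+0.14, adjusted p = 0.295). With the shortest transcript of each gene as its length, Sec61b in HSC-like cells did pass (+0.32, adjusted p = 1.12e-04) and Sec61g was at +1.21. Whether length or the libraries' preparation had a part in these changes was not tested.

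**Figure D5:**
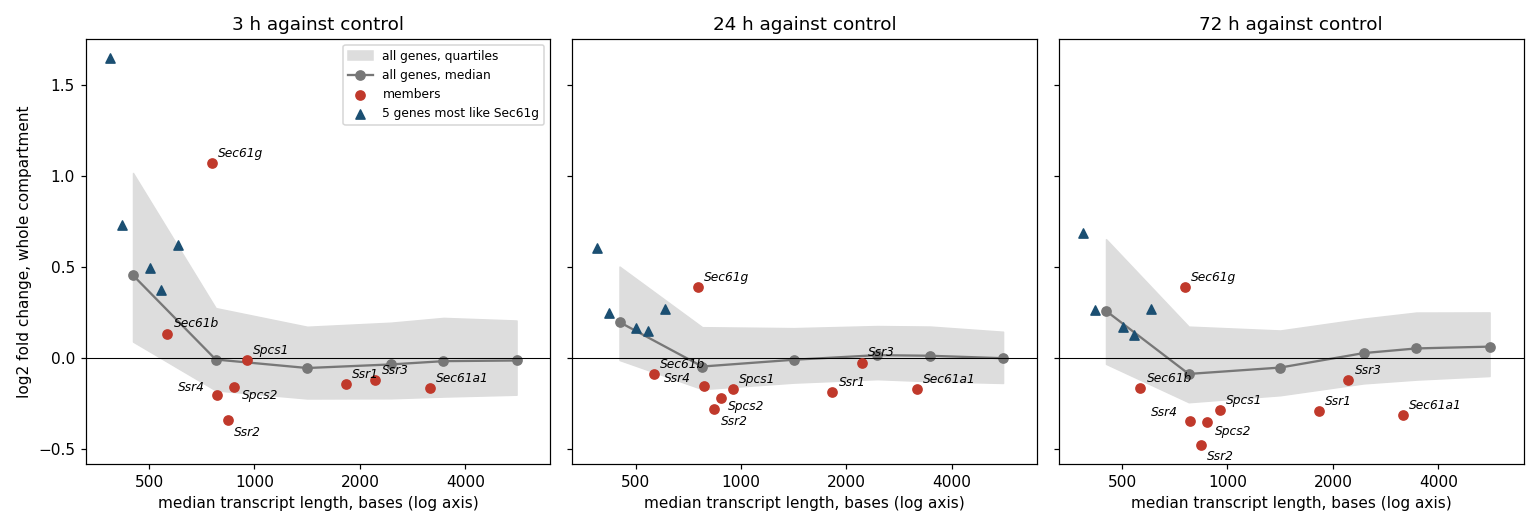
Log2 fold change from control at 3 h, 24 h and 72 h (1 panel each) in the whole compartment (linear axis), by median annotated transcript length in bases (log axis). The line gives medians of the tested genes and the grey band quartiles by length class. Red points are the 9 members and blue triangles the 5 genes most like Sec61g. At 3 h the median is +0.45 for transcripts of up to 600 bases (upper quartile +1.02) and near 0 beyond. Sec61g, drawn at its median of 754 bases (transcripts of 450 to 1862 bases), lies at +1.07.

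Chaperone and oligosaccharyltransferase genes, other steps of the route through the ER, had falls in the whole compartment and rises in HSC-like cells at 3 h. In the whole compartment at 3 h, where 19.7% of all genes were higher and 19.2% lower, of 19 ER chaperones and folding genes 0 rose and 9 fell (median log2FC -0.13, against -0.03 over all genes), and of 15 genes of ER-associated degradation 1 rose and 7 fell (median -0.23). Of 12 oligosaccharyltransferase genes, which attach sugars to incoming proteins, 3 rose and 6 fell (median -0.12). In HSC-like cells 9 of the 19 chaperone genes rose and 0 fell (median +0.30), and 6 of the 12 oligosaccharyltransferase genes rose and 0 fell (median +0.39), where 12.9% of all genes were higher. Of the 14 degradation genes tested there 1 rose and 0 fell (median -0.01), of 20 genes of membrane protein insertion 1 rose and 0 fell, of 8 other translocon and signal peptidase genes 1 rose and 1 fell (median -0.11), and of 12 regulators of the unfolded protein response 2 rose and 0 fell. In myeloid progenitor-like cells, where 13.8% of all genes were higher and 10.9% lower, the counts were 2 higher and 1 lower of the chaperones and 3 higher and 1 lower of the oligosaccharyltransferase genes. In LMPP-like cells 3 chaperones and 4 oligosaccharyltransferase genes rose and 0 fell (10.5% of all genes higher, 6.29% lower). Erythroid progenitor-like cells had 1 rise and 1 fall among 18 chaperones and 2 rises and 1 fall among oligosaccharyltransferase genes (9.52% higher, 4.07% lower). MK progenitor-like cells had 0 calls among 18 chaperones and 2 rises and 0 falls among oligosaccharyltransferase genes (8.09% higher, 2.2% lower). With class shares held equal 6 of the 19 chaperone genes rose and 1 fell in the whole compartment (median +0.09). The share of all genes called was not counted under that weighting. Whether these counts differ between classes was not tested. Scaling by library size alone lowered the median of all genes by 0.22 in HSC-like cells at 3 h. The lists were not counted under that scaling within classes, so the rises in HSC-like cells were not checked against this shift.

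Sdf2l1 and Ddost had opposite directions in the whole compartment and in HSC-like cells. Sdf2l1, a partner of the chaperone BiP, was at 268.8 ± 36.4 CPM in control mice and 216.3 ± 16.3 CPM at 3 h in the whole compartment (log2FC -0.36, adjusted p = 0.00179), whereas in HSC-like cells it rose (+0.71, adjusted p = 9.66e-04). A fall of Sdf2l1 was not called in myeloid progenitor-like cells (-0.09, adjusted p = 0.325). With class shares held equal it was not called either (+0.06, adjusted p = 0.548), whereas Ddost was still lower (-0.17, adjusted p = 0.00167). Ddost, a subunit of the oligosaccharyltransferase, fell in the whole compartment (-0.38, adjusted p = 5.02e-06) and in myeloid progenitor-like cells (-0.29, adjusted p = 1.67e-05) and rose in HSC-like cells (+0.36, adjusted p = 0.0033). The chaperones Ero1l (-0.46, adjusted p = 1.43e-04) and P4hb (-0.31, adjusted p = 0.00115) also fell in the whole compartment. Neither was called in HSC-like cells (+0.30 and +0.27, adjusted p = 0.402 and 0.0781). The degradation genes Edem1 (-0.48), Sel1l (-0.34) and Herpud1 (-0.31) fell in the whole compartment (adjusted p from 2.68e-04 to 0.00131). They were not called in HSC-like cells (-0.25, -0.17 and -0.20).

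Other genes rose in the whole compartment and in both HSC-like and myeloid progenitor-like cells. Sec62, a partner of the channel for proteins imported after their synthesis, went from 140.1 ± 5.2 to 222.3 ± 17.6 CPM in the whole compartment (log2FC +0.68, adjusted p = 6.21e-10) and had +0.57 in HSC-like and +0.71 in myeloid progenitor-like cells. Tmco1, which belongs to the multipass translocon, had +0.70 (adjusted p = 4.45e-11), with +0.91 and +0.62 in the same classes. Tmem258 and Ost4, small subunits of the oligosaccharyltransferase, had +0.64 and +0.45 (adjusted p = 3.80e-10 and 2.03e-10). The median transcript of Sec62 has 3967 bases, that of Tmco1 1573, that of Ost4 860 and that of Tmem258 526.5.

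The remaining lists had calls in both directions at 3 h in the whole compartment, where 19.7% of all genes were higher and 19.2% lower. Of 8 tested genes of the signal recognition particle and its receptor, which bring ribosomes to the channel, 1 rose (Srpr, log2FC +0.20, adjusted p = 0.00306) and 2 fell (Srp9, -0.18, and Srp72, -0.15), and in HSC-like cells 1 rose and 0 fell. Of 8 other translocon and signal peptidase genes 1 rose (Sec62) and 3 fell, among them Sec11a, a catalytic subunit of signal peptidase (-0.26, adjusted p = 7.84e-05), and Tram1, a neighbour of the channel (-0.23, adjusted p = 6.85e-05). Of 20 genes of membrane protein insertion 1 rose and 7 fell. Among the falls were Emc9 (-0.65, adjusted p = 6.44e-04) and Emc1 (-0.33, adjusted p = 0.0191), at 14.2 and 19.4 CPM in control mice. Of 12 regulators of the unfolded protein response 1 rose and 2 fell, which is no more than the share over all genes. Ddit3, a stress-induced transcription factor, had a log2FC of +0.30 (adjusted p = 0.0204), and Eif2ak3, the ER stress kinase PERK, one of -0.83 (adjusted p = 2.14e-04) at a level of 5.43 CPM in control mice. With class shares held equal neither was called (Ddit3 +0.17, adjusted p = 0.255, and Eif2ak3 -0.40, adjusted p = 0.0587), nor was either in HSC-like or myeloid progenitor-like cells. Srp9 and Srp72 were not called with equal shares either (-0.05 and -0.06).

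At 24 h and 72 h chaperones and oligosaccharyltransferase genes of the whole compartment had more falls than rises. Of the 19 chaperones 15 fell at 24 h and 14 at 72 h (median -0.29 at 72 h), and of the oligosaccharyltransferase genes 6 fell at 24 h and 8 at 72 h. Of the signal recognition particle genes 6 fell at 24 h and 5 at 72 h. Over all genes 13.8% were lower at 24 h and 18.5% at 72 h. With class shares held equal most of these falls were not called: 5 chaperones were lower at 24 h, and 3 were lower and 1 higher at 72 h (median -0.03). Among those lower at 24 h were Manf (-0.33, adjusted p = 3.29e-05), Sdf2l1 (-0.36, adjusted p = 6.12e-04) and Dnajc3 (-0.31, adjusted p = 0.00208). The oligosaccharyltransferase genes then had 1 rise and 2 falls at 24 h, and 2 rises and 3 falls at 72 h (median +0.05). The signal recognition particle genes had 0 rises at both times, with 1 fall at 24 h and 2 at 72 h. The share of all genes called was not counted under this weighting. In myeloid progenitor-like cells 7 of the 19 chaperones fell and 0 rose at 24 h, where 6.97% of all genes were lower. Manf, Sdf2l1 and Dnajc3 were among them (-0.34, -0.47 and -0.40). At 72 h 5 fell and 0 rose there, where 7.51% of all genes were lower. The clusters of that class differed between groups. In HSC-like cells 0 chaperones passed at 24 h (5.31% of all genes passed), and 2 rose and 0 fell at 72 h (3.5% were higher).

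Some members have near copies, and whether reads from these copies were counted for the members was not tested. Sec61g shares 420 bases at 100% identity with Gm10177, and Spcs2 shares 683 bases at 95.8% with Spcs2-ps; neither copy has a row in the files. Sec61b shares 165 bases at 99.4% with Gm10320, which had 193 UMIs in kept cells against 196743 for Sec61b. Sec61a1, Ssr2, Spcs1 and Spcs2 overlap a gene on the opposite strand, and no member overlaps a gene on its own strand.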

How the data were processed

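Single-cell 3′ libraries (10x v3.1) of 4 groups and their hashtag libraries were used. The deposited values are UMI counts per gene and cell, which the authors made with Cell Ranger 3.1.0 on mm10 (per the submitters' processing notes) and assigned to mice by hashtag with Seurat; the annotation is not given in the sources used here. The 9 members and all gene lists were chosen with earlier results of these data known. Counts were summed per mouse and class and tested with edgeR 4.0.16 (R 4.3.3): genes kept by filterByExpr, TMM scaling, quasi-likelihood F test, Benjamini-Hochberg adjustment over all genes, and classes with at least 10 cells in a mouse. CPM uses TMM-scaled library sizes.

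Clusters came from control cells (Scanpy 1.11.5), with labels transferred to treated cells over 3400 genes after neighbour-based correction; 95.1% of treated cells took the same class without correction. All 9 members are named. Of the other genes, the rule named up to 3 genes with the largest absolute log2FC among those passing in each list and time point with every treated mouse on 1 side of the control mean, the 5 genes most like Sec61g over 16 mice, and Isg15 as a check of the treatment. Not every gene named by this rule is given above. Multiplets were taken from the hashtag calls and no further doublet caller was run. Transcript lengths were matched from GENCODE vM21 for 12011 genes, and promoter windows from RefSeq.

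The scripts were tested on simulated counts. The alternatives were other scalings, tests (DESeq2 1.42.0 and the likelihood ratio test among them), filters on genes and cells, equal class shares (limma 3.58.1), removal of the length trend, other label transfers, the hashtag number as a block and each mouse left out. Added after seeing the data were single clusters, removal of 2 cells rich in Jchain, and the length trend per class and with shortest transcripts. Summed counts of 1102706 to 26446327 per mouse set the precision, which was lowest for control mouse 4. CPM values were not divided by length, so levels are not compared between genes.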

Additional observations from a re-analysis of the deposited data

Results flagged for a closer look

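In 11 of 189 sets of 4 mice looked at, 1 mouse lay apart from the other 3, where chance gives about 1 set in 20. Control mouse 4, the mouse with the fewest cells, accounted for 4 of them. In its 15 myeloid progenitor-like cells Ssr1 was at 393 CPM (332.5 to 335.7 in the others), Ssr2 at 572 CPM (519.6 to 526.4) and Ssr3 at 221 CPM (166.9 to 173.3), all above the other control mice. In the whole compartment Ssr4 was at 694 CPM in it, below the 743.5 to 752.4 of the others.

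The others were spread over genes and classes. In HSC-like cells Sec61b was at 906 CPM in mouse 3 of the 3 h group (783.7 to 804.1 in the others), and Ssr3 at 117 CPM in control mouse 2 (84.1 to 87.4). In MK progenitor-like cells Sec61b was at 753 CPM in mouse 3 at 24 h (722.4 to 727.1), Ssr4 at 595 CPM in mouse 2 at 3 h (500.5 to 513.2) and Ssr2 at 233 CPM in mouse 4 at 72 h (188.9 to 194.0). Sec61g was at 769 CPM in erythroid progenitor-like cells of mouse 3 at 72 h (641.7 to 655.4), and Ssr1 at 294 CPM in myeloid progenitor-like cells of mouse 2 at 24 h (326.8 to 331.8).

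In 5 cases the change at 3 h differed between classes by the test of the difference itself. HSC-like minus myeloid progenitor-like cells gave a difference of log2FC of 0.227 for Sec61b, 0.424 for Ssr1, 0.370 for Ssr2 and 0.338 for Spcs2, and HSC-like minus erythroid progenitor-like cells gave 0.435 for Spcs2. With scaling by library size alone 2 of the 4 differences from the myeloid class passed.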

How the results depend on the processing

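Counts of the 8 partners that passed are given here as they moved. Counts without a direction hold both directions. The share of all genes called was not counted for these alternatives, so the counts cannot be set against it. Scaling by library size alone lowered the median of all genes at 3 h by 0.15 in the whole compartment and by 0.13 to 0.22 in the classes. With library size alone, 0 rose and 7 fell in the whole compartment at 3 h and 4 passed between 24 h and 3 h. The same scaling gave 2 in LMPP-like cells at 3 h, 5 and 4 in myeloid cells at 3 h and 24 h, 4, 2 and 4 in erythroid cells at 3 h, 24 h and 72 h, and 2 differences between HSC-like and myeloid cells. With class shares held equal, 2 rose and 0 fell at 3 h, 1 fell at 24 h, and 1 rose and 4 fell at 72 h. With the length trend removed, 0 rose and 7 fell at 3 h, 1 passed between 24 h and 3 h, 1 passed in HSC-like cells at 3 h and 1 at 24 h, 4 and 3 in myeloid cells at 24 h and 72 h, 0 in erythroid cells at 24 h and 0 in MK cells at 3 h. With shortest transcripts the counts were 0 higher and 7 lower at 3 h and 1 in HSC-like cells at 24 h.

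In HSC-like cells at 72 h 0 passed with no gene filter, with the hashtag number as a replicate block, without the cells rich in Jchain and in cluster 4 alone. Cluster 10 alone gave 1 at 3 h and 2 at 72 h. DESeq2 size factors gave 2 in LMPP-like cells at 3 h, and 1 and 0 in myeloid cells at 3 h and 24 h. Labels transferred without correction gave 2 in LMPP-like cells at 3 h and 1 in myeloid cells at 24 h. No filter and the likelihood ratio test each gave 1 in myeloid cells at 24 h and 1 in erythroid cells at 72 h. Myeloid cluster 2 alone gave 1 at 72 h, and cluster 5 alone 1, 1 and 2 at 3 h, 24 h and 72 h. Leaving out single mice gave 0 to 1 partners higher at 3 h in the whole compartment, 0 to 1 in HSC-like cells at 72 h, and 1 to 2, 0 to 3 and 3 to 5 in myeloid cells at 3 h, 24 h and 72 h.

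The sign of 13 values turned. Sec61b at 3 h in the whole compartment had -0.0168 with library size alone, -0.236 with the length trend removed and -0.0621 with shortest transcripts. Equal class shares gave +0.105 for Sec61b and +0.0231 for Ssr3 at 72 h, and +0.0443 for Ssr1, +0.00083 for Ssr4 and +0.0220 for Spcs2 at 3 h. Removing the length trend gave Sec61b -0.0245 and -0.0385 in myeloid cells at 3 h and 72 h and -0.0114 in MK cells at 3 h. Cluster 5 alone gave Ssr2 +0.0413 at 3 h and +0.0448 at 24 h. The causes were not tested. Same-numbered hashtags had correlations of -0.06 to 0.09 over 24 pairs and share only a number, and the block gave 1 partner more among those lower at 3 h (5) and 24 h (6) in the whole compartment and among those passing in myeloid cells at 24 h (3).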
